A study of Mus musculus with 4 samples.

Results

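The genes described here are the ubiquitin ligase and deubiquitinase genes whose symbols begin with Trim, Rnf, Fbxo, Fbxw or Usp followed by a number, together with Mid1, a gene of the TRIM family under another name. Usp18 was left out. The rule found 237 of the 18193 genes named on the array, 59 in the Trim family with Mid1, 78 in Rnf, 32 in Fbxo, 18 in Fbxw and 50 in Usp. Each gene was read on 1 probe set, the one with the highest mean over the arrays. A symbol rule is not a rule on function. It also takes in Usp6nl, which encodes a GTPase-activating protein and no deubiquitinase, and Usp46os2, a transcript on the opposite strand of Usp46.

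Ubiquitin is joined to a target protein by an activating enzyme, a conjugating enzyme and a ligase, and the ligase chooses the target. TRIM and RNF proteins are mostly ligases with a RING finger, which holds the loaded conjugating enzyme beside the substrate. FBXO and FBXW proteins are F-box proteins, the receptors that bring a substrate to a cullin ligase, and USP proteins are proteases that take ubiquitin off again. In T cells such enzymes set the strength of antigen receptor signalling, the half-life of cell cycle regulators and the response to interferon.

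RNA from 4 populations of sorted mouse CD4+ CD8- thymocytes was hybridised to Affymetrix mouse 430 2.0 arrays, 1 array for each. All cells came from females of 6 to 8 weeks on a C57BL/6 and 129/Sv background. Mice homozygous for Foxp3(gfp), an allele that makes a fusion of GFP with Foxp3, the transcription factor of regulatory T cells, gave 3 sorted populations: GFP- CD25-, GFP- CD25+, and a GFP+ one called Foxp3-fusion below. Foxp3(gfpko/wt) females, which by the allele's name carry a GFP-marked knockout of this X-linked gene beside a wild-type copy, gave the GFP+ population called Foxp3-null below. Its group rests on the sample title, since its description repeats that of the other mice. Foxp3 itself read 2.76, 2.88, 7.27 and 8.82 log2 in the order GFP- CD25-, GFP- CD25+, Foxp3-null and Foxp3-fusion, which is kept for all lists of 4 values below, and the sort gene Il2ra (CD25) 3.62, 7.85, 9.11 and 10.35. The Foxp3 signal of the knockout population does not check its label, since no source used here says where the probe set lies relative to the altered part. Mice of the Foxp3-null array were 2 backcross generations from 129/Sv and those of the others 4 to 6, so genotype, mice, backcross and array cannot be told apart in any comparison with that array. The sources used here do not give how many mice were pooled. With 1 array a group there is no replicate check, error or p-value, and having so few arrays sets the precision of all values below. In such bulk samples fewer cells of a type and less RNA per cell cannot be told apart. The 6 comparisons of arrays made here share arrays, so they are not independent of each other.

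Signals are on a log2 scale after quantile normalization, which gives the 4 arrays the same distribution. Values under 4.44 log2, the floor reached by genes of unrelated tissues, were set to the floor, and a difference with 1 side under it is a lower bound, written "at least". From 7252 to 7479 genes lay above the floor on an array. The T cell markers Cd3e, Cd3d, Cd3g, Zap70, Lat, Cd5 and Cd28 and the sort marker Cd4 were above it on all 4 arrays, at 7.33 to 11.01 log2. Of 7 B cell markers on the array, Ms4a1 alone passed the floor, and of 12 markers of dendritic cells and macrophages 1, 2, 4 and 2 did. Their summed signal was 341, 338, 400.4 and 307, highest on the Foxp3-null array. That of the B cell markers, at 153, 162, 179 and 152, was also highest there. From the list of NK and NKT markers 3, 0, 1 and 1 passed the floor. Zbtb16 and Klrd1 did so in GFP- CD25- cells only, at 6.39 and 6.32 log2. The third marker was at least 2-fold higher in Foxp3-null than in GFP- CD25- cells, and under the floor in GFP- CD25+ cells. The summed signal of that list was 281, 152, 206 and 189. Of 5 CD8 T cell markers on the array 2, 2, 2 and 1 passed the floor, with a summed signal of 118, 166, 158 and 129. Cd8a among them read 4.71, 4.78, 4.70 and 4.42 log2, though the cells were sorted as CD8-. The part of these cells in the results was not tested. The gap between the 3' and 5' probe sets of actin, a measure of how far the amplified RNA reached, was 8.37, 9.29, 7.10 and 5.02 log2, and its part in the differences was not tested either.

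Of the 237 members, 141 lay above the floor on at least 1 array, 125 on all 4, and 96 on none. The list of members known from muscle, germ line or brain was at the floor throughout, with 11 of 11 genes under it on every array, among them the muscle ligase gene Trim63 and the testis gene Usp26. So was Rnf128, which encodes GRAIL, a ligase known from T cell anergy, at 3.82, 3.74, 3.69 and 3.79 log2. Among the 141, 56 differed by at least 2-fold between some pair of arrays, or 39.7%, against 40.1% of the 8089 genes above the floor. A 4-fold difference was reached by 12 members, or 8.51%, against 7.76% of those genes. The share for the whole group was thus close to that of all genes. By family, 15 of 31 Trim genes, 18 of 50 Rnf, 6 of 18 Fbxo, 3 of 8 Fbxw and 14 of 34 Usp genes were 2-fold apart. The Trim family had the widest median range over the arrays, 0.94 log2, against 0.84 for all genes, and Fbxw the narrowest at 0.74.

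**Figure D1:**
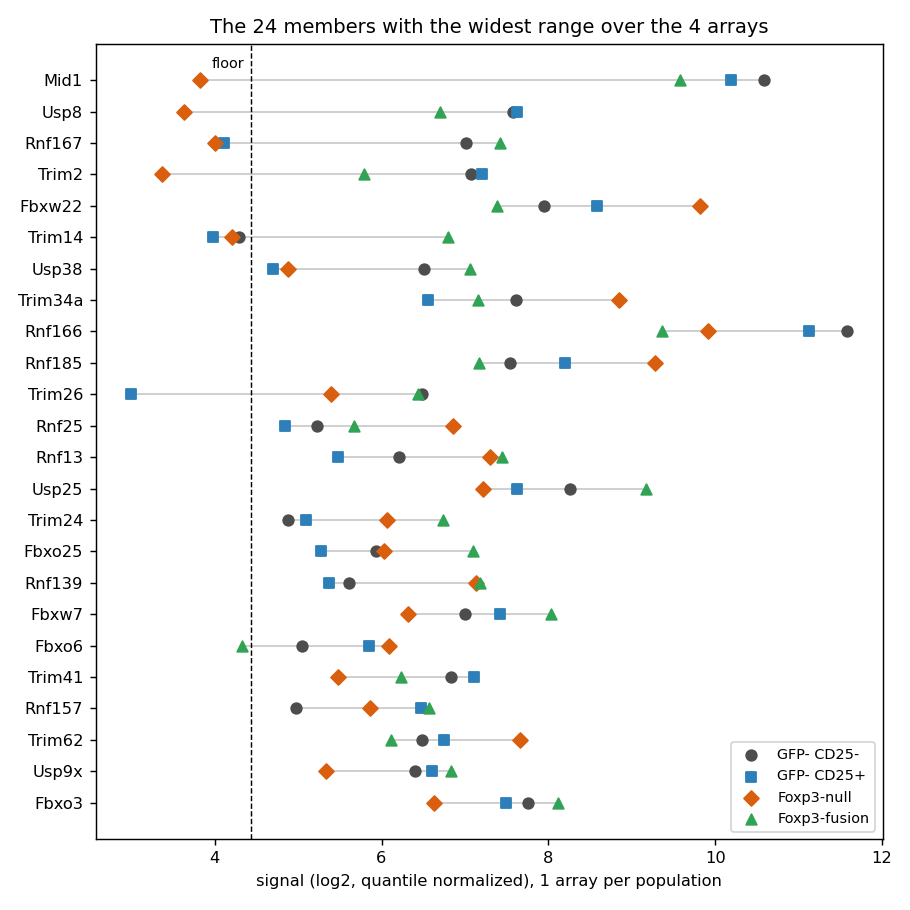
Signal in log2 (horizontal axis) of the 24 members with the widest range, with 1 marker per array and a dashed line at the floor of 4.44. Mid1 spans the widest range, from 3.83 on the Foxp3-null array to 10.59 on the GFP- CD25- array.

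Mid1, a microtubule-bound ligase that promotes the turnover of the phosphatase PP2A, showed the widest range of the group. Its signal was 10.59, 10.18, 3.83 and 9.58 log2. It was therefore high in 3 populations and under the floor in the Foxp3-null population alone. The Foxp3-null signal was at least 71.0-fold below that of GFP- CD25- cells, at least 53.7-fold below GFP- CD25+ cells and at least 35.4-fold below Foxp3-fusion cells. Foxp3-fusion cells were 2.01-fold below GFP- CD25- cells, and 0.76 log2 below on the deposited scale. The result rests on 1 probe set. The other Mid1 probe sets read 2.16 to 2.17 and 2.48 to 2.49 log2 on all arrays, so they carry no signal in any population. Mid1 lies on the X chromosome, as Foxp3 does, and the Foxp3-null mice were the least backcrossed; the part of either in the result was not tested.

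RefSeq lists 3 start sites for Mid1 in its table of GRCm38.p6, and which of them these cells use was not measured. The 250 bases before the first are shown because they hold the letters TGTTTAC, a core bound by forkhead factors, the family of Foxp3. Capitals mark the match, at chrX:169684949-169685198 on the plus strand:
Mid1: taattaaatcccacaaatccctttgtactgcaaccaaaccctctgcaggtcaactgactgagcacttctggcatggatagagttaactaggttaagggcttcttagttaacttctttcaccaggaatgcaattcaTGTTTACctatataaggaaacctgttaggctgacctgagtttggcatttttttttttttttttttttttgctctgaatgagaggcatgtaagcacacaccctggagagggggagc
The windows of the other 2 starts hold no match on either strand. Such a match is a description of the sequence, not a bound site. Promoter windows were found for 184 of the 237 members, and 7 of them, or 3.8%, held TGTTTAC or its reverse GTAAACA in at least 1 window, against 3.54% of 27025 genes. The rest of the 7 beside Mid1 were Rnf121, Rnf123, Rnf26, Rnf39, Trim63 and Trim67, of which Rnf39, Trim63 and Trim67 were under the floor throughout.

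The Foxp3-null array was the lowest of the 4 by at least 2-fold for 3 more members. Usp8, an endosomal deubiquitinase that spares receptors from lysosomal breakdown and is needed for thymocyte maturation, read 7.58, 7.62, 3.64 and 6.70 log2. The Foxp3-null value lay at least 8.81-fold under that of GFP- CD25- cells and at least 4.79-fold under that of Foxp3-fusion cells. Its other probe set passed the floor on the Foxp3-fusion array only, at 5.06 log2. Trim2, a ligase known from neurons, read 7.07, 7.21, 3.36 and 5.78 log2, at least 6.21-fold lower than in GFP- CD25- cells. The Trim2 probe set used can match several transcripts by its design, and the other 5 were under the floor on every array. Usp9x, an X-linked deubiquitinase with targets in cell survival and antigen receptor signalling, read 6.41, 6.60, 5.34 and 6.83 log2. For this gene Foxp3-null cells were 2.09-fold below GFP- CD25- cells and 2.81-fold below Foxp3-fusion cells. The brightest of the other 6 Usp9x probe sets read 6.14, 4.75, 6.48 and 7.49 log2, with GFP- CD25+ cells lowest, so the place of Foxp3-null cells depends on the probe set, while Foxp3-fusion cells were highest on both of these. These 4 genes were 2.84% of the 141 members, against 2.51% of all genes above the floor.

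Foxp3-null cells were the highest by at least 2-fold for 6 members, or 4.26%, against 1.76% of all genes above the floor. Fbxw22, from a cluster of closely similar F-box genes whose signals may not be separable, read 7.95, 8.59, 9.82 and 7.39 log2. Rnf25 read 5.23, 4.84, 6.86 and 5.67 log2, and Fbxo30 4.71, 4.81, 5.83 and 4.68. Rnf185, a ligase of the endoplasmic reticulum that takes part in the removal of misfolded proteins, read 7.55, 8.20, 9.28 and 7.17 log2. That probe set is of a cross-matching kind, and the other, at 3.53, 3.44, 3.41 and 4.57, passed the floor in Foxp3-fusion cells only, the opposite direction. The others were Trim12a and Trim34a, given with the interferon-responsive genes. On the deposited scale the gap to the next array stayed at 2-fold or more for Fbxw22 alone, at 1.17 log2, and was 0.66 to 0.99 for the other 5. Foxp3-fusion cells were highest by at least 2-fold for Trim14, Fbxo25 and Trim59 (2.13% of members, 3.36% of genes) and lowest for Rnf169 (0.709% against 0.94%), whose gap to the next array was 2.00-fold and only 0.65 log2 on the deposited scale. The count was 0 for GFP- CD25- cells, highest or lowest (background 1.09% and 1.16%), and 0 for GFP- CD25+ cells (1.01% and 1.4%).

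**Figure D2:**
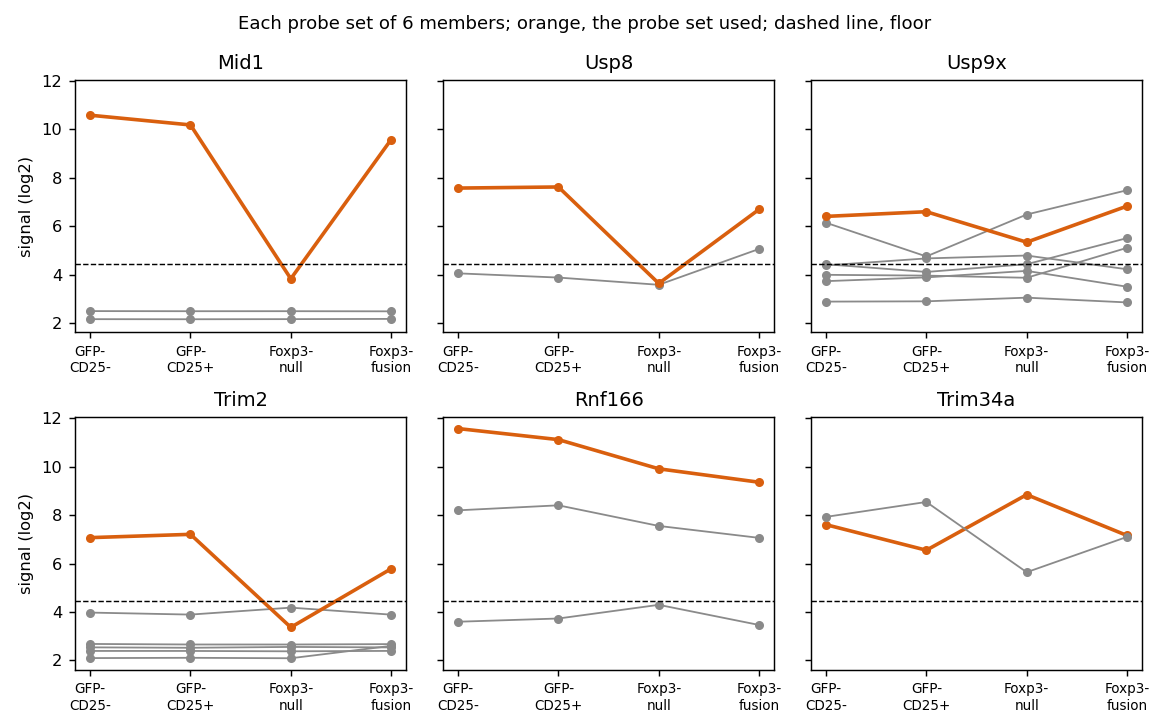
Signal in log2 (vertical axis) of every probe set of 6 members on the 4 arrays, with the probe set used in orange, the others in grey and the floor of 4.44 as a dashed line. The second bright probe set of Rnf166 follows the one used, that of Trim34a runs the other way, and the others of Mid1 and Trim2 stay under the floor.

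Foxp3-fusion over GFP- CD25- cells sets regulatory T cells beside other CD4 thymocytes. Of 138 measured members 11 were at least 2-fold higher, or 7.97%, and 6 were lower, or 4.35%. Over all genes measured the shares were 10.3% and 5.62%, so the members stood near or a little under the background. Their median was -0.05 log2, as for all genes (-0.05). Trim14, an adaptor of antiviral signalling without a RING finger, was at least 5.15-fold higher. It read 4.29, 3.97, 4.21 and 6.80 log2, above the floor in Foxp3-fusion cells only. Trim24, a chromatin-binding coregulator of nuclear receptors, read 4.88, 5.10, 6.07 and 6.74 log2 and was 3.62-fold higher. Both GFP+ populations were above both GFP- populations for Trim24, but its other bright probe set read 5.57, 5.34, 3.47 and 4.90 log2 and gave the opposite order. Trim59, a membrane-anchored ligase, read 10.16, 10.50, 10.56 and 11.61 log2 and was 2.72-fold higher.

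Among RNF genes, Rnf157 was 3.02-fold higher in this comparison, with 4.98, 6.47, 5.86 and 6.57 log2. GFP- CD25- cells were thus the lowest of the 4 for it. Rnf139, a ligase of the endoplasmic reticulum membrane, read 5.61, 5.37, 7.13 and 7.19 log2 and was 2.97-fold higher. Rnf13, a ligase of endosomal membranes, read 6.21, 5.48, 7.30 and 7.44 log2 and was 2.34-fold higher. On the probe sets used, both genes were higher in both GFP+ than in both GFP- populations. The share of all genes with such an order was not computed, for these or the other genes named. The other Rnf139 probe set read 5.17, 4.89, 4.64 and 4.58 log2, the opposite direction, while Rnf13 has no other bright probe set. Rnf2, the catalytic subunit of Polycomb complex 1, which marks histone H2A, read 8.40, 8.25, 8.42 and 9.42 log2 and was 2.02-fold higher. The remaining members on the higher side were the deubiquitinase genes Usp1, at 2.24-fold, and Usp47, at 2.15-fold, and the F-box genes Fbxo25, at 2.23-fold, and Fbxw7, at 2.03-fold. Usp47 read 8.42, 8.48, 9.61 and 9.53 log2, but neither of its other bright probe sets, at 7.34, 6.69, 7.21 and 7.32 and at 6.53, 5.66, 5.83 and 6.50, was higher in either GFP+ population than in GFP- CD25- cells.

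Rnf166 was the member furthest down in Foxp3-fusion cells, and both of its bright probe sets went the same way. The one used read 11.58, 11.12, 9.92 and 9.36 log2, and the other 8.20, 8.41, 7.55 and 7.06. Both GFP+ populations lay below both GFP- populations on each. Rnf166 was 4.65-fold lower in Foxp3-fusion and 3.17-fold lower in Foxp3-null than in GFP- CD25- cells. Fbxw2 was 2.54-fold lower in Foxp3-fusion than in GFP- CD25- cells, Trim2 2.44-fold, Rnf169, which acts at DNA breaks, 2.14-fold, and Rnf123 2.05-fold. Fbxw2 read 8.07, 7.57, 7.77 and 6.73 log2, and its 2 other bright probe sets were also lower in Foxp3-fusion cells, though by less than 2-fold. Of the 17 members in this comparison, 14 were also 2-fold apart on the deposited scale, and Mid1, Rnf123 and Rnf169 were not. There 15 stood above and 3 below in place of 11 and 6, so 83.3% in place of 64.7% stood above. Over all genes that scale gave 80.0% in place of 64.7%.

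Foxp3-null over GFP- CD25- cells sets cells that use the Foxp3 locus, marked by GFP from the knockout allele, beside cells that do not. Of 138 measured members 12 were at least 2-fold higher (8.7%, against 10.7% of all genes) and 13 lower (9.42% against 7.72%). The median was 0.14 log2, below the 0.21 of all genes. Beside Mid1, Usp8 and Trim2, the lower members were led by Rnf167, a ligase of endosomal and lysosomal membranes, which read 7.01, 4.11, 4.00 and 7.43 log2. Against GFP- CD25- cells it was at least 5.95-fold down on the Foxp3-null array and, by the same bound, on the GFP- CD25+ array. Usp38 had a like pattern at 6.51, 4.70, 4.88 and 7.06 log2 and was 3.09-fold lower in Foxp3-null cells. For both genes GFP- CD25- and Foxp3-fusion cells were high, and GFP- CD25+ and Foxp3-null cells low. Neither gene has a second probe set on the array.

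Usp37, which stabilises cyclin A, was 2.63-fold lower in Foxp3-null than in GFP- CD25- cells, with 6.09, 6.11, 4.69 and 5.48 log2. Its other probe set, at 5.02, 4.97, 4.25 and 4.92, was also lowest there, under the floor. Trim41 was 2.55-fold lower, with 6.83, 7.11, 5.48 and 6.23 log2, and its second probe set was likewise lowest in Foxp3-null cells, at 3.37 log2 against 5.15 in GFP- CD25- cells. Smaller differences downward were those of Rnf14 at 2.28-fold, Fbxo3 at 2.19-fold, Trim26 at 2.12-fold, Usp9x at 2.09-fold and Usp25 at 2.06-fold. Upward, Fbxw22 was 3.67-fold higher, Rnf185 3.32-fold, Rnf25 3.08-fold, Rnf139 2.87-fold and Trim12a 2.75-fold. Trim34a was 2.36-fold higher, Usp47 2.29-fold, Trim24 2.28-fold, Trim62 2.26-fold, Fbxo30 2.17-fold, Rnf13 2.12-fold and Fbxo6, an F-box protein that binds glycoproteins, 2.06-fold. Trim62 is the member of this list whose second probe set also reached 2-fold. It read 6.49, 6.74, 7.66 and 6.12 log2 on the probe set used and 5.85, 6.04, 7.05 and 5.44 on the other. On the deposited scale 5 stood above and 21 below, or 19.2% above in place of 48.0%, and over all genes 30.6% in place of 58.2%. With each array centred on its median it was 16 and 10, or 61.5% higher. In which direction more members differ in this comparison is therefore set by the scaling, while Mid1 was lower by at least 6.22 log2 on the deposited scale.

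**Figure D3:**
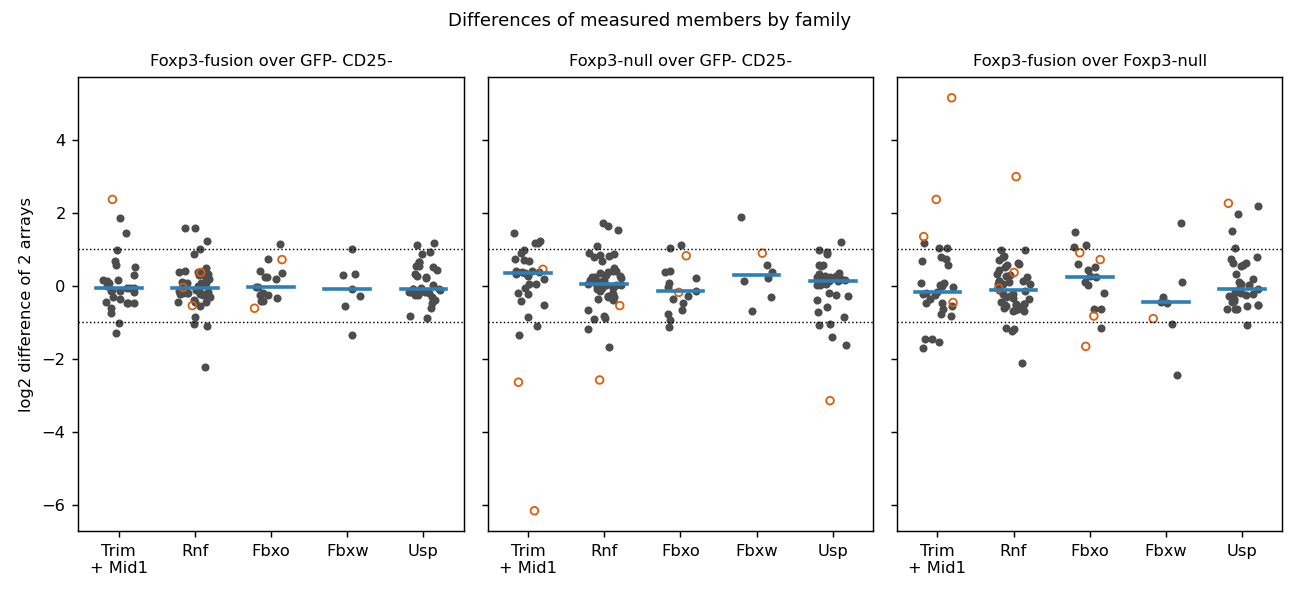
Log2 difference between 2 arrays (vertical axis) of each measured member, by family, for 3 comparisons; blue bars are medians, open orange circles have 1 side under the floor, and dotted lines mark 2-fold. Family medians lie between -0.45 and 0.34, and Mid1 stands apart at -6.15 and 5.14.

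The 2 GFP+ populations were set side by side for the difference between the fusion and the knockout allele. In Foxp3-fusion over Foxp3-null cells, 16 of 140 measured members reached 2-fold upward (11.4%, against 9.29% of all genes) and 13 downward (9.29% against 8.93%). After Mid1, the largest differences upward were Rnf167, at least 7.94-fold, Trim14, at least 5.15-fold, Usp8, at least 4.79-fold, and Usp38, 4.52-fold. Usp25, a deubiquitinase of innate immune signalling, read 8.25, 7.63, 7.21 and 9.17 log2 and was 3.9-fold higher. Fbxw7, the receptor that sends cyclin E, Myc and Notch for breakdown, read 7.01, 7.42, 6.32 and 8.03 log2 and was 3.27-fold higher. Foxp3-fusion cells were the highest and Foxp3-null cells the lowest of the 4 for Usp25 and Fbxw7. The other bright Fbxw7 probe set read 5.05, 4.50, 4.80 and 4.57 log2 and gave no such order.

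Further members on the higher side of this comparison were Usp9x at 2.81-fold, Fbxo3 at 2.8-fold, Trim2 at no less than 2.54-fold, Trim12c at 2.24-fold and Fbxo11 at 2.15-fold. Fbxo25, Trim59, Usp4 and Trim26 followed at 2.1-fold, 2.06-fold, 2.05-fold and 2.05-fold. Fbxw22 was 5.41-fold lower in Foxp3-fusion cells, Rnf185 4.3-fold, Trim34a 3.22-fold and Fbxo6 at least 3.15-fold. Trim62 was 2.92-fold lower and its second probe set was also past 2-fold. Trim12a was 2.76-fold lower, Trim40 2.75-fold, Rnf10 2.35-fold, Rnf25 2.28-fold, Fbxo30 2.21-fold, Rnf169 2.21-fold, Usp39, a spliceosome protein without protease activity, 2.09-fold, and Fbxw2 2.05-fold. By family, 6 of 31 Trim genes were higher and 4 lower, 1 and 4 of 49 Rnf genes, 3 and 2 of 18 Fbxo, 1 and 2 of 8 Fbxw, and 5 and 1 of 34 Usp genes. On the deposited scale 36 members were higher and 5 lower, or 87.8% higher in place of 55.2%. All genes moved alike there, from 51.0% to 85.8% higher, and the median of all genes went from -0.16 to 0.27 log2. Of the 29 members, 21 were still 2-fold apart the same way. Fbxo30, Fbxw2, Rnf10, Rnf169, Rnf25, Trim12a, Trim62 and Usp39 were not. With cross-matching probe sets dropped, Rnf185, Trim34a, Usp39 and Usp4 changed sign, and Fbxw2, Rnf10 and Trim12a fell under 2-fold.

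Of the 6 comparisons, GFP- CD25+ over GFP- CD25- cells had the fewest members 2-fold apart. With the median over a gene's probe sets it did not, with 8 of 97 members, while Foxp3-fusion over GFP- CD25- cells had 5 of 101. Of 135 measured members 3 were at least 2-fold higher (2.22%, against 4.16% of all genes) and 5 lower (3.7% against 4.68%). In either direction 8.83% of all genes were 2-fold apart. Rnf157 was 2.82-fold higher, Rnf135, a ligase of the RIG-I antiviral pathway, 2.5-fold, and Rnf149 2.06-fold. Rnf135 read 6.18, 7.5, 6.85 and 6.26 log2, and Rnf149 7.74, 8.78, 8.13 and 8.01, both highest in GFP- CD25+ cells. Lower were Rnf167, at least 5.95-fold, Trim26, at least 4.13-fold, Usp38 at 3.5-fold, Trim39 at 2.3-fold and Trim34a at 2.08-fold. On the deposited scale 2 were higher and 6 lower, or 25% higher in place of 37.5%.

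Foxp3-fusion cells set against GFP- CD25+ cells gave 18 of 137 members at least 2-fold higher (13.1%, against 11.7% of all genes) and 8 lower (5.84% against 8.32%). In either direction 20.1% of all genes were 2-fold apart. This comparison shares its arrays with the ones above, so it is no separate evidence for the same genes. Rnf167, at least 7.94-fold, Trim14, at least 5.15-fold, Usp38, 5.12-fold, Trim26, at least 3.99-fold, and Rnf13, 3.9-fold, led upward. Next came Fbxo25 at 3.54-fold, Rnf139 at 3.53-fold, Trim24 at 3.12-fold, Usp25 at 2.91-fold and Usp33, a deubiquitinase of the endoplasmic reticulum, at 2.56-fold. Usp45 was 2.21-fold higher, and its second bright probe set also reached 2-fold, as did that of Trim33. Downward, Rnf166 was 3.39-fold lower and Trim2 2.68-fold lower, Fbxo6 at least 2.66-fold, Rnf135 2.36-fold and Fbxw22 2.3-fold. Usp10, a p53 deubiquitinase, was 2.12-fold lower, Rnf185 2.04-fold and Rnf169 2.00-fold. With the values as deposited 35 stood above and 3 below, 92.1% of them above in place of 69.2%.

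Foxp3-null cells set against GFP- CD25+ cells gave 13 of 135 members at least 2-fold higher (9.63%, against 8.7% of all genes) and 11 lower (8.15% against 7.42%). Trim34a was 4.91-fold higher, Rnf25 4.04-fold, Rnf13 3.53-fold, Rnf139 3.4-fold, Trim5 2.73-fold and Rnf8, which starts ubiquitin signalling at DNA breaks, 2.67-fold. Fbxw22 was 2.35-fold higher, Usp16, which removes ubiquitin from histone H2A, 2.29-fold, Trim12a 2.26-fold and Usp47 2.19-fold. Beside Mid1, Usp8 was at least 9.09-fold lower, Trim2 at least 6.82-fold, Trim41 3.09-fold, Usp37 2.67-fold, Usp9x 2.39-fold, Rnf166 2.31-fold and Rnf6 2.2-fold. Fbxw7 was 2.15-fold lower and Fbxo22 2.12-fold, but for both the other bright probe set did not go the same way. The same held for Trim34a, Rnf139 and Trim12a on the higher side. For Usp9x, too, no other bright probe set went the same way. Rnf114 was 2.01-fold higher, and its other bright probe set also reached 2-fold. Rnf6 read 7.36, 7.62, 6.49 and 7.07 log2, and its other probe set 6.32, 6.82, 5.74 and 7.37, so Foxp3-null cells were lowest on both.

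**Figure D4:**
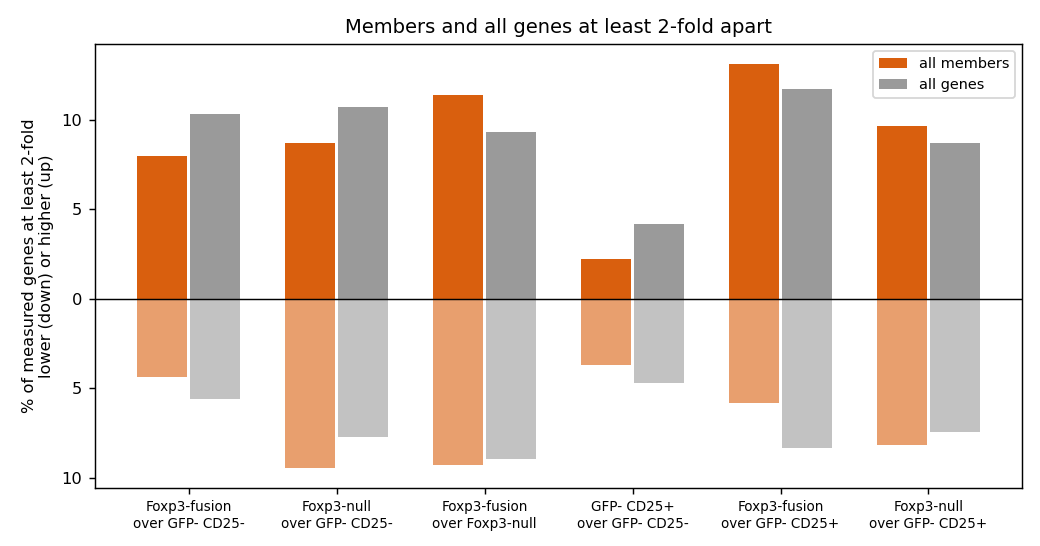
Percent of measured members (orange) and of all measured genes (grey) at least 2-fold higher (upward bars) or lower (downward, paler bars) in each of the 6 comparisons of 2 arrays. The members' shares run from 2.22% to 13.1% upward and from 3.7% to 9.42% downward, beside 4.16% to 11.7% and 4.68% to 8.93% for all genes.

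TRIM genes known to respond to interferon formed one of the lists chosen by function. Of its 11 genes on the array, 10 passed the floor on at least 1 array. In Foxp3-null over GFP- CD25- cells 2 of 9 measured reached 2-fold upward and 1 downward, at a median of 0.20 log2 (0.21 for all genes). In GFP- CD25+ over GFP- CD25- cells 0 were higher and 2 lower, with a median of -0.44 (0.10 for all genes). In Foxp3-null over GFP- CD25+ cells 3 were higher and 0 lower, with a median of 0.80 (0.10). In Foxp3-fusion over Foxp3-null cells 3 of 10 were higher and 2 lower, and over GFP- CD25+ cells 3 were higher and 0 lower, at a median of 0.47 (-0.10 for all genes). Foxp3-fusion over GFP- CD25- cells had 1 of 10 higher and 0 lower, at a median of -0.03 (-0.05). Of all genes, in the same order of comparisons, 10.7%, 4.16%, 8.7%, 9.29%, 11.7% and 10.3% were higher. Lower were 7.72%, 4.68%, 7.42%, 8.93%, 8.32% and 5.62%. Trim12a read 7.97, 8.26, 9.43 and 7.97 log2 and Trim34a 7.61, 6.55, 8.85 and 7.16, each highest in Foxp3-null cells. The second Trim34a probe set ran the other way at 7.93, 8.54, 5.64 and 7.10 log2, and that of Trim12a was flat at 5.01 to 5.36. Trim5, Trim12a, Trim12c, Trim30a and Trim34a belong to a cluster of similar genes, so signals may be shared between them and single values are uncertain.

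Trim14, another gene of the list, was given above with Foxp3-fusion cells. Trim21, the cytosolic antibody receptor, read 7.72, 7.34, 8.13 and 7.66 log2, and Trim25, the ligase of the RIG-I sensor, 10.88, 10.73, 10.47 and 11.04. Trim30a ranged from 9.81 to 10.46 log2, and Trim56 read 9.43, 8.99, 9.63 and 9.26. Trim26, which lies in the major histocompatibility region, read 6.48, 3.0, 5.40 and 6.43 log2 and was under the floor in GFP- CD25+ cells alone. The other Trim26 probe set passed the floor on the Foxp3-null array only, at 4.56 log2. Of 16 other interferon-stimulated genes on the array, 12 were measured in Foxp3-null over GFP- CD25- cells. Of these, 2 reached 2-fold upward and 0 downward (10.7% and 7.72% of all genes), with a median of 0.46 log2 (0.21 for all genes). Ifit1, an antiviral protein gene, was among them at 8.71, 7.46, 10.57 and 8.98 log2. The median of the same list was -0.38 in GFP- CD25+ over GFP- CD25- cells (0.10 for all genes). There 0 were higher and 1 lower (4.16% and 4.68% of all genes).

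The interferon response element that such genes share was searched as GAAA, any 2 bases and GAAA again, on either strand, in the 250 bases before each start site. It was found for 5 of the 10 list genes with a window, against 6 of the other 174 members and 3.46% of 27025 genes. Matches may overlap. The windows of Trim26, Trim5 and Trim12c are shown, with the matches in capitals, because these genes differed between populations and hold the element. The rest of the 5 were Trim30a, which stayed within 2-fold on the probe set used, and Trim30d, which was under the floor throughout. Trim26 has 2 overlapping matches at chr17:36836896-36837145 on the plus strand, and Trim5 and Trim12c have 1 each at chr7:104288107-104288356 and chr7:104353350-104353599 on the minus strand:
Trim26: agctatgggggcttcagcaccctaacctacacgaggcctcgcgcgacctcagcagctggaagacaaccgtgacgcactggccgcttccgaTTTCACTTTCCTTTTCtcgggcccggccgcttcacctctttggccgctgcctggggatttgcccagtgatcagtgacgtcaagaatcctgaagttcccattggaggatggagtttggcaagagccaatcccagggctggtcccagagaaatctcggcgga
Trim5: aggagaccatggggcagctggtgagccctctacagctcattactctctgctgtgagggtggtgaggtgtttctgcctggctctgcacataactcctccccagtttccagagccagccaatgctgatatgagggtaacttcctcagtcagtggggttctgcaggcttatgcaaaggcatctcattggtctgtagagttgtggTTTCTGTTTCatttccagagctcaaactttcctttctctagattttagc
Trim12c: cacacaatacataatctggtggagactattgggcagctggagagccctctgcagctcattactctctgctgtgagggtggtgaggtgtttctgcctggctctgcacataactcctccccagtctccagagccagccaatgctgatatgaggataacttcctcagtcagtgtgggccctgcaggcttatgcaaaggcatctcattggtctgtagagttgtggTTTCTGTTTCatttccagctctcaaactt
The windows of Trim5 and Trim12c share a run of 63 identical bases that covers the element, which lies 39 and 19 bases before their starts, and a longer run of 71 bases that does not hold it. Trim5 read 5.69, 4.95, 6.40 and 6.20 log2, with GFP- CD25+ cells lowest, and Trim12c 9.38, 9.07, 8.52 and 9.68, with Foxp3-null cells lowest. The orders of these genes over the arrays differ, and the part of the element in them was not tested. The other bright Trim12c probe set was not lower in Foxp3-null cells than in either GFP- population. Trim12a and Trim34a, highest in Foxp3-null cells, hold no match in these windows.

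Among 17 members with a known place in T cell function 13 were measured. In Foxp3-fusion over GFP- CD25- cells 1, Fbxw7, was higher and 0 lower (10.3% and 5.62% of all genes). In Foxp3-fusion over Foxp3-null cells 4 were higher, namely Fbxw7, Usp4, Usp8 and Usp9x, and 0 lower (9.29% and 8.93%). Usp4, a deubiquitinase that acts on the TGF-beta receptor, read 7.15, 6.66, 6.78 and 7.82 log2, but its other probe set, at 5.42, 5.92, 5.61 and 5.24, was lowest in Foxp3-fusion cells. In Foxp3-null over GFP- CD25- cells 0 were higher and 2 lower (10.7% and 7.72%), and over GFP- CD25+ cells 0 and 3 (8.7% and 7.42%). Usp7, which removes ubiquitin from Foxp3 among other targets, read 10.69, 10.72, 10.85 and 10.23 log2. Of its 4 other bright probe sets, 3 were lowest in GFP- CD25+ cells, the widest at 7.13, 5.21, 7.73 and 7.19 log2, and the fourth was highest there, at 5.80, 6.92, 6.51 and 5.57. Usp22, of the SAGA complex, read 5.91, 5.75, 5.67 and 5.73. Usp21 and Usp44, also described as deubiquitinases of Foxp3, were under the floor on all 4 arrays. Rnf31, the catalytic subunit of the linear ubiquitin ligase, read 5.22, 5.36, 5.70 and 5.03 log2. Rnf125, a ligase found in activated T cells, read 6.53, 6.28, 5.71 and 6.30. On the probe sets used, Usp7, Usp22, Rnf31 and Rnf125 stayed within 2-fold between every pair of arrays.

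Among chromatin and DNA damage genes, 3 of 16 measured reached 2-fold upward in Foxp3-fusion over GFP- CD25- cells and 1 downward (10.3% and 5.62% of all genes), with a median of 0.26 log2 (-0.05 for all genes). Usp1, which acts in the Fanconi anaemia repair pathway, read 8.47, 8.81, 9.45 and 9.64 log2. Of its 2 other bright probe sets, 1 read 7.18, 7.95, 7.05 and 6.37, and neither was higher in Foxp3-null than in GFP- CD25+ cells. Trim33, a coregulator of TGF-beta signalling, read 9.11, 9.09, 10.01 and 10.09 log2, higher in both GFP+ populations, whereas its other bright probe set, at 7.27, 6.98, 5.54 and 8.66, was lowest in Foxp3-null cells. Trim28, a corepressor of zinc finger proteins, read 8.92, 8.99, 9.26 and 8.62 log2.

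Of 14 measured cell cycle genes outside the group 8 stood at 2-fold or more above GFP- CD25- cells on the Foxp3-null array, and 0 below (10.7% and 7.72% of all genes), with a median of 1.17 log2 (0.21 for all genes). Of the 6 measured members of the cell cycle list 0 were higher and 1, Usp37, was lower, with a median of 0.49. Fbxo5, an inhibitor of the anaphase-promoting complex, read 7.03, 6.85, 7.43 and 6.79 log2, highest in Foxp3-null cells by less than 2-fold. Fbxw11, a receptor for inhibitors of NF-kappaB and for beta-catenin, read 11.24, 11.66, 11.82 and 11.53. Members anchored in membranes or organelles counted 3 of 17 higher and 0 lower in Foxp3-fusion over GFP- CD25- cells (10.3% and 5.62% of all genes), at a median of 0.21 log2 (-0.05). For the Foxp3-null array over the same cells 3 of 16 were above and 2 below (10.7% and 7.72%), at a median of 0.16 (0.21).

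The rest of the ubiquitin system was described by 4 lists chosen by function. Of 35 measured ligases of the HECT and other classes 3 reached 2-fold upward and 4 downward in Foxp3-fusion over GFP- CD25- cells (10.3% and 5.62% of all genes). For Foxp3-null over GFP- CD25- cells the counts were 2 and 7 (10.7% and 7.72%). Itch, a HECT ligase whose loss gives autoimmune disease, read 8.85, 9.31, 6.90 and 7.36 log2, and Nedd4 7.46, 7.07, 3.90 and 5.06. Both were lower in both GFP+ populations. Cblb, which raises the threshold of T cell activation, read 10.21, 10.38, 8.54 and 10.18 log2 and was low in Foxp3-null cells alone. Birc3, which acts with TNF receptors, read 9.56, 10.58, 10.75 and 10.88, lowest in GFP- CD25- cells. Dtx1, a ligase of the Notch pathway, read 7.66, 7.10, 8.47 and 5.80, lowest in Foxp3-fusion cells.

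Of 19 measured cullin ligase genes 7 reached 2-fold upward and 1 downward in Foxp3-fusion over Foxp3-null cells, at a median of 0.58 log2 (-0.16 for all genes). Of all genes 9.29% and 8.93% were so in this comparison. Cand1, which exchanges the substrate receptors of cullin ligases, read 6.87, 6.42, 7.84 and 9.02 log2, and Cul5 9.32, 10.20, 7.03 and 7.58. Skp2, the F-box receptor for the cell cycle inhibitor p27, read 6.91, 7.96, 5.48 and 6.61. Of 24 conjugating and activating enzyme and ubiquitin genes 5 were higher and 1 lower in the same comparison, with a median of -0.20. Ube2n, which builds chains that activate kinases, read 6.33, 5.96, 5.14 and 6.95 log2. Of 19 other deubiquitinase genes 2 were higher and 2 lower there. Yod1 read 8.90, 8.16, 6.32 and 8.51 log2, and Tnfaip3, the A20 gene that limits NF-kappaB, 6.29, 6.48, 7.43 and 7.16, higher in both GFP+ populations.

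Agreement between probe sets was limited for the members that differed. In Foxp3-null over GFP- CD25- cells 6 of the 13 lower members had another probe set above the floor. All such probe sets went the same way for 4 of these, and none reached 2-fold. Of the 12 higher members 7 had one, with the same direction for 3 and 2-fold for 1. In Foxp3-fusion over Foxp3-null cells the numbers were 7, 2 and 1 for the 16 higher members and 9, 6 and 1 for the 13 lower ones. In Foxp3-fusion over GFP- CD25- cells they were 6, 1 and 0 for the 11 higher members and 3, 3 and 1 for the 6 lower ones.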

How the data were processed

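RNA of 4 sorted CD4+ CD8- thymocyte populations was amplified in 2 rounds and hybridised to Affymetrix mouse 430 2.0 arrays, per the labels' protocols. The deposited table holds 1 log2 value per probe set and array. That they are log2 was judged by how far they spread, and the authors' background correction, summarisation and normalization are not given in the sources used here. Array 90th percentiles ran from 7.54 to 8.16, so the values were quantile normalized (Python 3.11.15, numpy 2.4.6, pandas 2.3.3), which assumes equal distributions. Of 45101 probe sets 64 controls were left out, and 34945 had 1 gene in the platform annotation. The floor of 4.44 (4.44 on the deposited scale too) came from 67 probe sets for 41 genes of tissues other than thymus: each array's 90th percentile was taken, and the largest used.

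A gene was counted in a comparison at a difference of at least 2-fold, with 1 side above the floor. No test was made. Genes named are Mid1, up to the 10 largest differences in each direction and comparison, members standing apart on 1 array, and genes of the fixed lists. A few further members past 2-fold complete those counts and were named after their values were seen. Members and lists were chosen with earlier results of these data known. Gene identifiers matched RefSeq (GRCm38.p6) for 236 of 237 members. The scripts were tested on simulated data. Alternatives were the deposited scale, median centring, no floor, a floor raised by 1 log2 unit, the middle value among a gene's probe sets, and dropping cross-matching probe sets, whose design allows several transcripts.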

Additional observations from a re-analysis of the deposited data

How the results depend on the processing

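Of 82 recomputed values 58 stayed within 1.5-fold (0.1 log2 for medians), 24 moved and 0 turned sign among the Mid1 differences. Mid1 differed by at least -6.15 log2 in Foxp3-null over GFP- CD25- cells and by at least 5.14 in Foxp3-fusion over Foxp3-null cells. Without a floor these were -6.76 and 5.75 as values, and with a floor 1 log2 unit higher -5.15 and 4.14. With the median over probe sets, Mid1 was under the floor in all populations and gave no value.

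Taking each gene's median probe set value lowered the number of members 2-fold apart to 5 from 17 in Foxp3-fusion over GFP- CD25- cells, to 10 from 25 in Foxp3-null over GFP- CD25- cells and to 14 from 29 in Foxp3-fusion over Foxp3-null cells. It gave 17 in place of 26 in Foxp3-fusion and 12 in place of 24 in Foxp3-null over GFP- CD25+ cells. Dropping cross-matching probe sets, whose design allows several transcripts, gave 16 in Foxp3-null over GFP- CD25- cells, 19 in Foxp3-fusion over Foxp3-null cells, where the median became 0.0092, and 5 in place of 8 in GFP- CD25+ over GFP- CD25- cells. The cause was not tested, beyond the fewer members measured.

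Members' medians depended on the scaling. In the order Foxp3-fusion over GFP- CD25-, Foxp3-null over GFP- CD25-, Foxp3-fusion over Foxp3-null, GFP- CD25+ over GFP- CD25-, Foxp3-fusion over GFP- CD25+ and Foxp3-null over GFP- CD25+ they were -0.05, 0.14, -0.09, 0.02, -0.03 and 0.14, and on the deposited scale 0.14, -0.12, 0.43, -0.18, 0.33 and 0.017. Median centring gave 0.29, -0.21 and -0.13 for Foxp3-null over GFP- CD25-, Foxp3-fusion over Foxp3-null and Foxp3-fusion over GFP- CD25+. Without a floor, where silent genes enter, those of Foxp3-null over GFP- CD25- and over GFP- CD25+ were 0.0037 and -0.00057.

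Over the 6 comparisons 129 member differences reached 2-fold. On the deposited scale 102 did so the same way and 0 changed sign, and with median centring 117 and 0. With the median over probe sets 42 of 98 measured did and 10 changed sign, and without the cross-matching ones 82 of 99 did and 10 changed sign, Trim34a in 4 comparisons among them. No paired analysis was possible because each group has 1 array. Signals under the floor of 4.44 log2 give bounds only.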
